A study of Mus musculus with 24 samples.

Results

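Bone of mice heterozygous for an altered Ednra allele was compared with bone of wild-type mice, on 8 of the 24 bead arrays of the series, 4 per genotype, chosen by their sample titles. The labels describe male C3HeB/FeJ mice aged 117 days. The 4 arrays labelled heterozygous are of mice with the allele that the series names Ednray129F, made by chemical (ENU) mutagenesis, and the other 4 are labelled wild type; 8 arrays carry 7 mouse numbers. The other 16 arrays hold heart and white adipose tissue of the same genotypes. The labels give no method for cleaning the bone, and the number of arrays limits the precision of every value below.

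Ednra encodes the endothelin A receptor, a G protein-coupled receptor that binds endothelin peptides and acts through Gq and related G proteins on calcium release. In the embryo it patterns the jaw and the outflow vessels of the heart, and in the adult it acts mainly on vascular smooth muscle. Endothelin also acts on osteoblasts, and whole bone brings its marrow with it, where granulocytes, macrophages, red cell precursors and lymphocytes are made. No probe paired with Ednra was analysed here, so the receptor's own transcript could not check the genotype labels.

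Levels below are log2 intensities, normalized across the bone arrays, and a change is the heterozygous mean minus the wild-type mean on that scale, with its standard error. A gene passed the threshold when limma's moderated test gave a Benjamini-Hochberg adjusted p under 0.05 over all 9460 genes measured. Defining bone transcripts were bright on these arrays. Bglap, the matrix protein osteocalcin, averaged 13.57 in wild-type and 13.66 in heterozygous bone, Ibsp, another osteoblast matrix protein, 12.49 and 12.41, and Ctsk, the main protease of osteoclasts, 12.61 and 12.55. Skeletal muscle transcripts were bright too, with Acta1 at 14.68 and 14.59 and Ckm at 13.22 and 13.14, so the samples were not bone cells alone. In such bulk samples, fewer cells of a type and less RNA per cell cannot be told apart.

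The arrays did not differ in brightness by genotype beyond the spread between them. Mean raw signal was 473 to 625 and 13353 to 13919 probes were detected per array (two-sided exact permutation tests, p = 0.686 and p = 0.371, n = 4 per group, where the smallest p possible is 0.0286). Wild-type array 3 stood apart from its group. Its levels, centred per gene, correlated on average at -0.276 with the other wild-type arrays and at 0.023 with the heterozygous arrays, while each other wild-type array correlated at 0.038 to 0.142 with its own group and at -0.301 to -0.44 with the heterozygous group. Over all genes its nearest neighbour was heterozygous array 3, and the nearest neighbour of heterozygous array 4 was wild-type array 3. The labels also give wild-type array 3 and heterozygous array 4 the same mouse number. Whether this is a shared animal or a numbering slip could not be told from the labels. An animal has a single genotype, so a shared animal would mean that the genotype label of either array is wrong. Each main result is therefore given with and without wild-type array 3.

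Over all 8 arrays, 7 of 9460 genes passed the threshold (0.074%), 4 higher (0.0423%) and 3 lower (0.0317%) in heterozygous bone, while 1746 genes (18.5%) had an unadjusted p under 0.05. The 4 that rose were Gsn, Csta3, AB124611 and Slfn1, and the 3 that fell were Bach1, Ddx6 and Purb. Their changes reached 2.26-fold. All 4 heterozygous arrays lay on 1 side of all 4 wild-type arrays for 934 genes (9.87%), 408 higher and 526 lower. When each array was scaled to its median, the non-overlapping genes split into 205 higher and 691 lower, and no gene passed the threshold in limma, with 1703 at an unadjusted p under 0.05. Without wild-type array 3, 805 of 9375 genes passed (8.59%), 418 higher and 387 lower, and all 7 of the genes above were among them; with median scaling this split was 217 and 389. That array was singled out because it resembled the heterozygous arrays, and leaving out the control nearest to the other group raises the number of calls by construction. Every "rose", "fell" or change below that rests on the fit without it is therefore a description of the other 7 arrays. So is its adjusted p, and neither is independent evidence of a genotype difference. Over all 8 arrays, none but the 7 genes above passed. Of those 805 genes, 399 also had groups that did not overlap over all 8 arrays, 205 higher and 194 lower. The 7 calls needed all 8 arrays or the removal of wild-type array 3: without any other array, 0 to 3 genes passed in limma, with 1150 to 1761 at an unadjusted p under 0.05.

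Gsn encodes gelsolin, which severs and caps actin filaments. Its level was 7.31, 6.90, 7.86 and 6.92 on the wild-type arrays and 8.52, 8.51, 8.32 and 8.32 on the heterozygous arrays. The groups did not overlap, and wild-type array 3 was the nearest to the heterozygous arrays. The change was 1.17 ± 0.18, or 2.26-fold (limma, adjusted p = 0.0428), and 1.38 ± 0.13 without wild-type array 3 (adjusted p = 0.000611). Of the other 15 measured genes of the list on actin turnover, 1 rose without wild-type array 3, against 4.46% of all genes. That gene was Pfn1, which delivers actin monomers, with a change of 0.41 (limma, adjusted p = 0.0139). Actb and Cfl2, a cytoplasmic actin and a cofilin, had changes of -0.13 and -0.32 over 8 arrays and did not pass. The other kept Actb probes, all dimmer, disagreed, with changes from -0.95 to 0.83.

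Csta3 belongs to the mouse stefin A cluster of cytoplasmic inhibitors of cysteine proteases, abundant in neutrophils. Its levels were near background in wild-type bone, at 4.95, 4.94, 5.29 and 5.65, where 2 of 4 arrays detected it, and 6.08, 6.22, 6.21 and 6.28 in heterozygous bone, where all 4 did. The change was 0.99 ± 0.16 (limma, adjusted p = 0.0428). All 4 measured members of the cluster rose without wild-type array 3, against 4.46% of all genes. Over 8 arrays 3 of them were higher with no overlap, against 4.31%. Their median change was 1.06 over 8 arrays, against -0.03 over all genes tested, and 1.20 without wild-type array 3. Cstdc4 stood at 9.55, 9.22, 10.30 and 10.33 on the wild-type arrays and at 11.13, 11.16, 10.84 and 10.98 on the heterozygous arrays, a change of 1.33 ± 0.20 without wild-type array 3 (limma, adjusted p = 0.00313). Stfa1 and Stfa2 changed by 1.39 and 1.08 in the same fit. These genes are close copies of each other, so a probe of one can bind transcripts of another, and they are not independent measurements.

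AB124611 stood at 7.17, 6.73, 7.56 and 7.20 in wild-type bone and at 8.08, 8.16, 7.98 and 8.22 in heterozygous bone, a change of 0.95 ± 0.15 (limma, adjusted p = 0.0428). Slfn1 is a Schlafen gene, of a family known in mice for holding T cells quiescent and for its response to interferon. It stood at 9.60, 9.31, 9.59 and 9.40 against 9.95 to 10.24 in heterozygous bone, a change of 0.58 ± 0.09 (limma, adjusted p = 0.0428). Wild-type array 3 lay within the range of the other wild-type arrays for Slfn1, unlike for AB124611. Slfn2, the other measured Schlafen gene, had a change of 0.29 and did not pass in either fit.

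Bach1 encodes a transcriptional repressor of heme oxygenase and iron-handling genes that heme inactivates. Its level was 9.17, 9.40, 8.92 and 9.04 in wild-type bone and 8.34, 8.32, 8.18 and 8.37 in heterozygous bone. Every heterozygous array was below every wild-type array. The change was -0.83 ± 0.11 (limma, adjusted p = 0.0288), and -0.90 ± 0.11 without wild-type array 3 (adjusted p = 0.00148). Of 16 measured genes in the list on Bach1, heme and iron handling, which includes Bach1 itself, 3 rose and 1 fell without wild-type array 3, against 4.46% and 4.13% of all genes; without wild-type arrays 2 and 3 together, 0 rose in limma and 1 fell. Those that rose were Hmox1, heme oxygenase 1, by 0.69; Slc40a1, the iron exporter ferroportin, by 0.35; and Nfe2l2, the activator Nrf2 that competes with Bach1, by 0.56. Gclm, an enzyme subunit of glutathione synthesis that Bach1 also represses, had a change of -0.27 and did not pass.

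Ddx6 encodes an RNA helicase of P-bodies, the granules in which silenced mRNAs are held and decapped. Its level was 9.64, 9.80, 9.42 and 9.79 in wild-type bone and 9.06, 8.83, 8.94 and 8.92 in heterozygous bone, a change of -0.72 ± 0.10 (limma, adjusted p = 0.0288). The other 2 kept Ddx6 probes, both dimmer, had changes of -0.29 and -0.05. In the P-body and mRNA decay list, 4 of 16 measured genes fell and 0 rose without wild-type array 3, against 4.13% of all genes lower, and 3 were lower with no overlap over 8 arrays, against 5.56%. Ago2, the slicing argonaute, changed by -0.87, Tnrc6a, the scaffold that argonautes bind, by -0.45 and Edc4, a decapping scaffold, by -0.45 in that fit. Tnrc6b did not pass but its groups did not overlap, with a change of -0.47 over 8 arrays. The list's median change was -0.18. Without wild-type arrays 2 and 3 together, 1 member passed.

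Purb encodes a single-stranded nucleic acid-binding protein that represses smooth muscle actin. Its level was 6.96, 7.22, 6.76 and 6.86 in wild-type bone and 6.13, 6.20, 6.16 and 6.01 in heterozygous bone, a change of -0.83 ± 0.13 (limma, adjusted p = 0.0428). The spread among the heterozygous arrays was smaller than the gap to the nearest wild-type array. Its relative Purg and the Y-box binding protein Ybx3, of the same list, had changes of -0.07 and -0.28 and did not pass in either fit. The change of Ybx3 ran from -0.43 to 0.24 across the alternative runs.

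**Figure D1:**
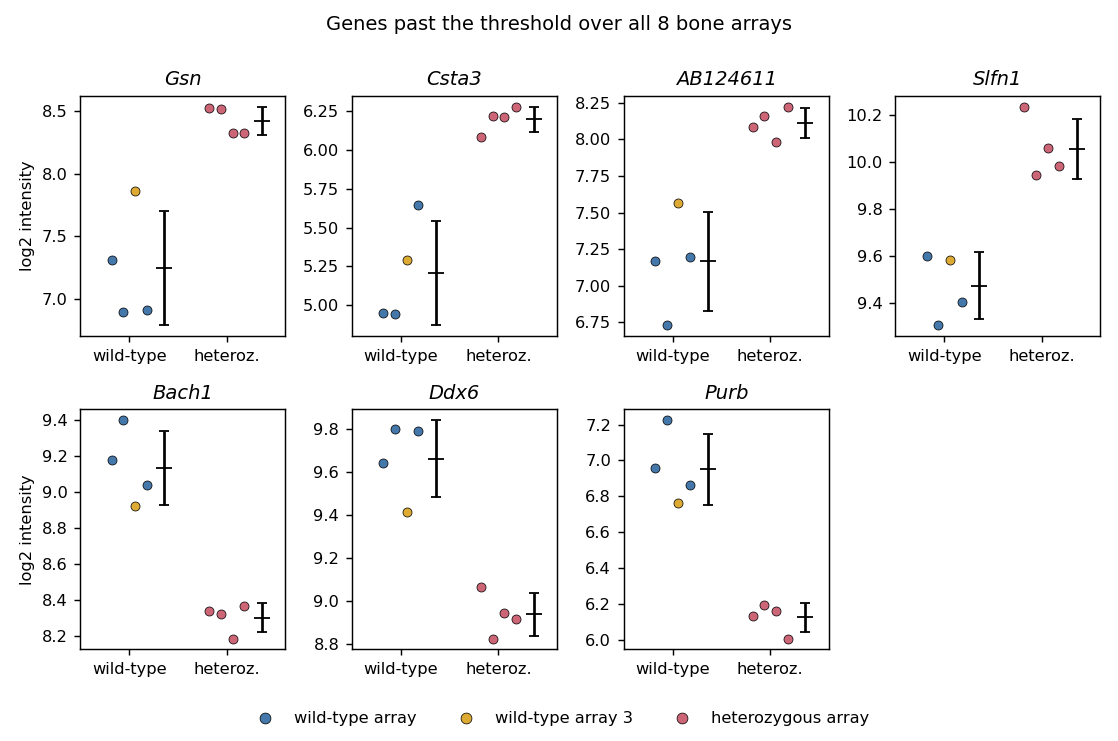
Level of each of the 7 genes past the threshold, one panel per gene, with log2 intensity on the vertical axis, each array as a point and the mean ± SD of 4 arrays beside it; wild-type array 3 is in yellow. The heterozygous points lie on one side of all wild-type points in every panel, and the yellow point is the nearest wild-type point for 5 of the 7 genes.

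The largest changes in bone were those of eosinophil genes. Eosinophils are granulocytes that ripen in marrow and pack toxic basic proteins into their granules. Promoter sequences are shown for Prg3 and Ccr3 because GATA-1 is the factor known to set the eosinophil lineage, and for Ear6 and Ear10 because they show how alike these genes are. All are the 250 bases before the RefSeq start, from GRCm38.p6, 5′ to 3′ on the gene's strand. In the first pair, capitals mark AGATAA or TGATAA on either strand, letters that GATA factors are known to bind. Both promoters held 1 match, and those of Epx, Ear6 and Ear10 held none; no promoter of Prg2 was given. Of all 32851 promoter windows of the same length, 16.6% held a match.
Prg3 (chr2:84987965-84988214, plus strand): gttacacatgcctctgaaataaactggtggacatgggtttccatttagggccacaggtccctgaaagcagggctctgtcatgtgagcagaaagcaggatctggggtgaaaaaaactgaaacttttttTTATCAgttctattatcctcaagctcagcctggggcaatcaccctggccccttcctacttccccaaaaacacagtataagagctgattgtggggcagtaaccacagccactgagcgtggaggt
Ccr3 (chr9:124021721-124021970, plus strand): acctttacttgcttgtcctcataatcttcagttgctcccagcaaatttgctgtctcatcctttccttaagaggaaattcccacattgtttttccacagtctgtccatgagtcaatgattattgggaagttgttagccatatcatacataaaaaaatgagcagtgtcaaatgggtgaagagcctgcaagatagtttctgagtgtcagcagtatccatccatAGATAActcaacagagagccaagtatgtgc

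In the second pair, capitals mark the longest run of letters that both promoters share, 57 bases. Between the unrelated promoters of Prg3 and Epx the longest such run was 8 bases.
Ear6 (chr14:51853518-51853767, plus strand): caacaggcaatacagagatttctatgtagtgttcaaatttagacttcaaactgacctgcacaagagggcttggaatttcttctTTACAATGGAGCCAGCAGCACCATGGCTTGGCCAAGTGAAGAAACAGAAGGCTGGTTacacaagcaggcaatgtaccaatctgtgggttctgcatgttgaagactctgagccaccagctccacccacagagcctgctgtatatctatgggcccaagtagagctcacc
Ear10 (chr14:43923597-43923846, minus strand): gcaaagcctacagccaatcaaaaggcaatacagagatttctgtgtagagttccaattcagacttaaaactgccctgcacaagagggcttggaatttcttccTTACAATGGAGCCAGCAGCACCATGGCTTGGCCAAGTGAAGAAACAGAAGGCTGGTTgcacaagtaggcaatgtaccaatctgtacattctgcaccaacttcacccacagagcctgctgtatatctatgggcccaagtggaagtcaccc

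All 6 measured eosinophil genes had positive changes over 8 arrays, and the groups of 5 of them did not overlap, against 4.31% of all genes higher with no overlap. None passed the threshold over 8 arrays, and all 6 rose without wild-type array 3, against 4.46% of all genes. Their median change was 2.12, and 2.65 without wild-type array 3. Prg2, the major basic protein of the granule core, stood at 13.84, 9.05, 13.83 and 11.38 on the wild-type arrays and at 14.43, 14.31, 14.48 and 14.29 on the heterozygous arrays. Ear6, an eosinophil-associated ribonuclease, stood at 10.68, 4.87, 10.89 and 7.15 against 11.71, 11.63, 11.72 and 11.93. Both genes were low on wild-type arrays 2 and 4, while wild-type arrays 1 and 3 came close to the heterozygous arrays. The heterozygous arrays agreed within 0.13 (SD, n = 4) for Ear6, where the wild-type arrays had an SD of 2.91.

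Ear6, detected on 3 of 4 wild-type arrays, changed by 3.35 ± 0.99 over 8 arrays (limma, adjusted p = 0.106) and by 4.18 ± 0.91 without wild-type array 3 (adjusted p = 0.0176). Prg3, the homologue of major basic protein, changed by 2.42 ± 0.66 (adjusted p = 0.0920) and 2.99 ± 0.59 (adjusted p = 0.0126) in the same limma fits. Its wild-type levels were 8.67, 5.05, 8.82 and 5.93 and its heterozygous levels 9.36 to 9.68, the pattern of Prg2 and Ear6. Epx, eosinophil peroxidase, stood at 8.61, 5.27, 8.65 and 6.61 against 9.00 to 9.29, with changes of 1.89 and 2.35. Ear10, another ribonuclease, stood at 7.94, 6.71, 8.17 and 7.12 against 8.70 to 9.22, and its change of 1.46 ± 0.26 came closest to the threshold (limma, adjusted p = 0.0571). Ccr3, the eotaxin receptor, overlapped between groups, because wild-type array 3 at 6.96 lay inside the heterozygous range of 6.43 to 7.10.

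The size of the eosinophil change rested on wild-type array 2. Without that array the median change was 1.29, 0 genes of the list or of the whole table passed in limma, and 1150 genes had an unadjusted p under 0.05; the groups of 5 of 6 genes still did not overlap. Without wild-type arrays 2 and 3 together, 2 of the 6 passed and the median was 1.67. Without wild-type array 3 and heterozygous array 4, the arrays that share a mouse number, all 6 passed. Ear6 and Ear10 have close relatives, so their probes may take up transcripts of other ribonuclease genes.

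**Figure D2:**
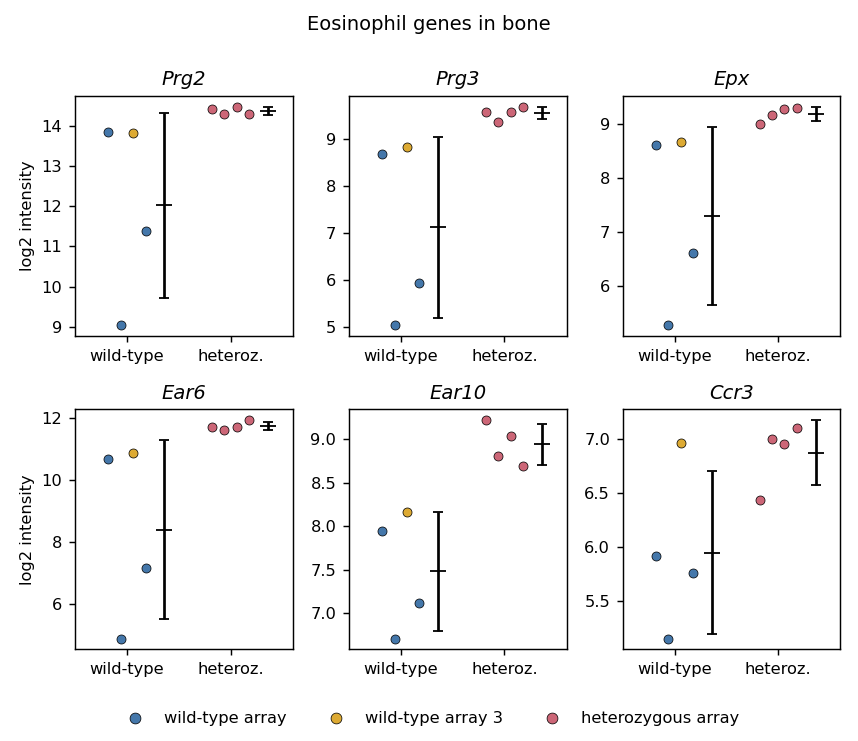
Level of 6 eosinophil genes on each bone array, one panel per gene, log2 intensity on the vertical axis, arrays as points and the mean ± SD of 4 arrays beside them; wild-type array 3 is in yellow. Heterozygous arrays lie close together at the top, and wild-type arrays 2 and 4 (the second and last blue points from the left, by replicate) are far below them for Prg2, Prg3, Epx and Ear6.

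Of the neutrophil genes, 0 passed over 8 arrays in limma, and some of each maturation stage rose without wild-type array 3. Among primary granule genes, made at the promyelocyte stage, 5 of 8 rose without wild-type array 3, against 4.46% of all genes, and 3 of 8 were higher with no overlap over 8 arrays, against 4.31%. Their median change was 0.40. Over 8 arrays 6 were higher at an unadjusted p under 0.05, against 762 of all 9460 genes. Ms4a3, a marker of granulocyte and monocyte progenitors, stood at 10.62, 10.42, 11.30 and 11.01 in wild-type and at 11.61, 11.84, 11.57 and 11.41 in heterozygous bone, a change of 0.93 ± 0.13 without wild-type array 3 (limma, adjusted p = 0.00283). Fcnb, a ficolin, and the serine proteases Ctsg, Elane and Prtn3 changed by 0.64, 0.62, 0.60 and 0.38 in that fit. Mpo, myeloperoxidase, the brightest of the list, had a change of -0.04 and did not pass.

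Among secondary granule genes, 12 of 12 changes were positive, against 43.8% of all genes, and 5 rose without wild-type array 3; the median was 0.36. Olfm4 rose most, by 0.97 ± 0.15 in that fit (limma, adjusted p = 0.00374), from wild-type levels of 9.55, 8.97, 10.28 and 9.81 to heterozygous levels of 10.39 to 10.45. Anxa1, annexin A1, Chil1 and Lcn2, the iron-siderophore binder lipocalin 2, changed by 0.76, 0.57 and 0.64. Ltf and Camp, lactoferrin and cathelicidin, had changes of 0.04 and 0.06 at levels near the top of the scale. Among mature neutrophil genes, 17 of 17 changes were positive, 7 rose without wild-type array 3 (4.46% of all genes did) and 7 were higher with no overlap (4.31% of all genes); the median was 0.38. Retnlg, a resistin-like secreted protein, stood at 13.47, 13.04, 13.58 and 13.50 against 14.15, 14.05, 13.86 and 13.81. Ccl6, Clec4e, Cxcr2, Padi4 and Trem3, a chemokine, a lectin, the receptor for neutrophil chemokines, the histone-citrullinating enzyme and a triggering receptor, changed by 0.56 to 0.87 in that fit. S100a8 and S100a9, the subunits of calprotectin, had changes of 0.09 and 0.00 and did not pass.

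The neutrophil lists were lowest on wild-type array 2, at -0.51, -0.56 and -0.44 relative to their means over 8 arrays. Without that array their medians were 0.27, 0.24 and 0.28 and 0 members passed in limma; without wild-type arrays 2 and 3 together, 2 of each list passed. Acute inflammation genes were also lowest on wild-type array 2, at -0.36. Without that array 0 of 17 passed in limma, and without wild-type arrays 2 and 3 together 2 of 16 passed. Over 8 arrays 6 of 17 were higher with no overlap, against 4.31% of all genes. Without wild-type array 3 alone, 5 of 16 rose, against 4.46% of all genes. Orm1, the acute-phase protein orosomucoid, rose by 0.87, Hp, haptoglobin, by 0.56 and Il18, an inflammasome cytokine, by 0.64. Some of these genes, Ccl6 and Lcn2, are also in the neutrophil lists.

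Among the genes with the largest changes without wild-type array 3 and no overlap, further myeloid genes stood beside the eosinophil genes. Wfdc17, a small whey acidic protein-domain protein of myeloid cells, stood at 6.28, 6.13, 7.57 and 6.49 in wild-type bone and at 7.96, 8.01, 7.69 and 7.98 in heterozygous bone, a change of 1.61 ± 0.13 (limma, adjusted p = 0.000282). Sirpa, the receptor that reads CD47 as a signal not to engulf, and its relative Sirpb1a changed by 1.46 and 1.57. Clec5a, a myeloid lectin, changed by 1.39, and its other 2 kept probes had changes of 0.67 and 0.46 over 8 arrays. For Wfdc17, Sirpa, Sirpb1a and Clec5a, wild-type array 3 was the nearest to the heterozygous arrays. Cyp2e1, a cytochrome P450 of liver and fat, changed by 1.53 and had its lowest level, 6.67, on wild-type array 1.

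Of 14 tissue macrophage genes, 9 rose without wild-type array 3, against 4.46% of all genes, and 3 were higher with no overlap over 8 arrays, against 4.31%. None passed over 8 arrays in limma, and the median was 0.39. There 11 were higher at an unadjusted p under 0.05, against 762 of all 9460 genes. Without wild-type array 3, the complement subunits C1qb and C1qc changed by 0.79 and 0.67, Ms4a7 by 0.79 and Lyz2, lysozyme, by 0.62. Cd14, the coreceptor for lipopolysaccharide, changed by 0.61 and Mrc1, the mannose receptor, by 0.53. Siglec1, a marker of marrow macrophages that hold red cell precursors, had a change of -0.23 and did not pass. Slc40a1, counted among the 9 that rose, is also in the list on Bach1, heme and iron handling. Without wild-type array 2 as well, 4 of 14 passed. Of 7 monocyte genes 1 rose, Ly86, by 0.43. Of 6 basophil and mast cell genes 3 rose, Prss34, a basophil protease, Fcer1a, a chain of the IgE receptor, and Cpa3, carboxypeptidase A3, by 0.53, 0.76 and 0.66, and 0 passed when wild-type array 2 was left out too. Of 10 MHC class II genes 2 rose, H2-Ea by 0.44 and H2-Eb1 by 0.40. Of 21 interferon-response genes tested without wild-type array 3, 1 rose, Psmb8, an immunoproteasome subunit, by 0.54; Ifit2 and Ifit3 had changes of 0.44 and 0.47 and did not pass.

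Red cell precursor genes were lower. Of 11 early erythroid genes, 5 fell without wild-type array 3 and 4 were lower with no overlap over 8 arrays, against 4.13% and 5.56% of all genes; the median was -0.29. Gata1, the master regulator of red cell, platelet and eosinophil lineages, stood at 8.56, 8.41, 8.04 and 8.32 in wild-type and at 7.63, 7.96, 7.93 and 7.99 in heterozygous bone, a change of -0.56 without wild-type array 3 (limma, adjusted p = 0.0158). Zfpm1, the cofactor FOG-1, changed by -0.40, Gfi1b by -0.50, Tal1 by -0.38 and Tfrc, the transferrin receptor, by -0.34. Of 13 late erythroid genes 3 fell, Alas2, the erythroid enzyme that starts heme synthesis, by 0.29, Ank1, ankyrin of the red cell membrane, by 0.43 and Kel, a blood group protein, by 0.43. The median of that list was -0.25. Hba-a1 stood at 15.10 on every array, the top of the range, where no difference can be seen. Without wild-type arrays 2 and 3 together, 0 genes of either erythroid list passed in limma, where 167 of all genes did.

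Of 8 heme synthesis enzymes, 3 fell and 1 rose without wild-type array 3, against 4.13% and 4.46% of all genes. Ppox and Uros changed by -0.43 and -0.38, and Cpox by 0.55, in that fit. Alas2 also fell and is counted in the late erythroid list too. Without wild-type arrays 2 and 3 together, 0 of the 8 passed in limma, where 167 of all genes did. Of 13 megakaryocyte and platelet genes 3 fell and 1 rose, against 4.13% and 4.46% of all genes; without wild-type arrays 2 and 3 together, 0 passed in limma. Itga2b, the fibrinogen receptor chain CD41, stood at 11.03, 11.01, 10.48 and 10.51 in wild-type bone and at 9.93, 9.85, 10.27 and 10.25 in heterozygous bone, a change of -0.77 (limma, adjusted p = 0.00833); its dimmer probe changed by -0.22 over 8 arrays. Gp5, a von Willebrand factor receptor subunit, and Selp, P-selectin, changed by -0.36 and -0.49, and Tubb1, the platelet tubulin, by 0.61. Vwf and Gp9 had changes of -0.32 and -0.31 and did not pass.

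Few genes of the B lineage lists passed without wild-type array 3, where 4.46% of all genes rose and 4.13% fell. None of 10 pro-B and pre-B cell genes passed in either fit. Nor did 5 plasma cell genes over 8 arrays, or the 4 tested without wild-type array 3. Over 8 arrays 4 pro-B and pre-B cell genes and 0 plasma cell genes had an unadjusted p under 0.05, against 18.5% of all genes. Of 10 mature B cell genes 1 fell, Blk, a B cell kinase, by 0.55. Of 11 T and NK cell genes, 2 rose and 1 fell without wild-type array 3. Over 8 arrays 2 were higher with no overlap, against 4.31% of all genes. Nkg7, a cytotoxic granule protein, rose by 0.64, Cd3d, a T cell receptor chain, rose by 0.48 and Prf1, perforin, fell by 0.92. Without wild-type arrays 2 and 3 together, 0 of 10 rose and 1 fell. Prf1 stood at 9.69, 9.83, 8.96 and 9.46 in wild-type bone and at 8.60 to 8.96 in heterozygous bone, where wild-type array 3 met the highest heterozygous array. Pou2f2, the B cell factor Oct-2, was among the largest lower changes, at -0.91, and so was Tnfrsf25, the T cell receptor for TL1A, at -0.87; Tnfrsf25 was close to background in heterozygous bone.

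**Figure D3:**
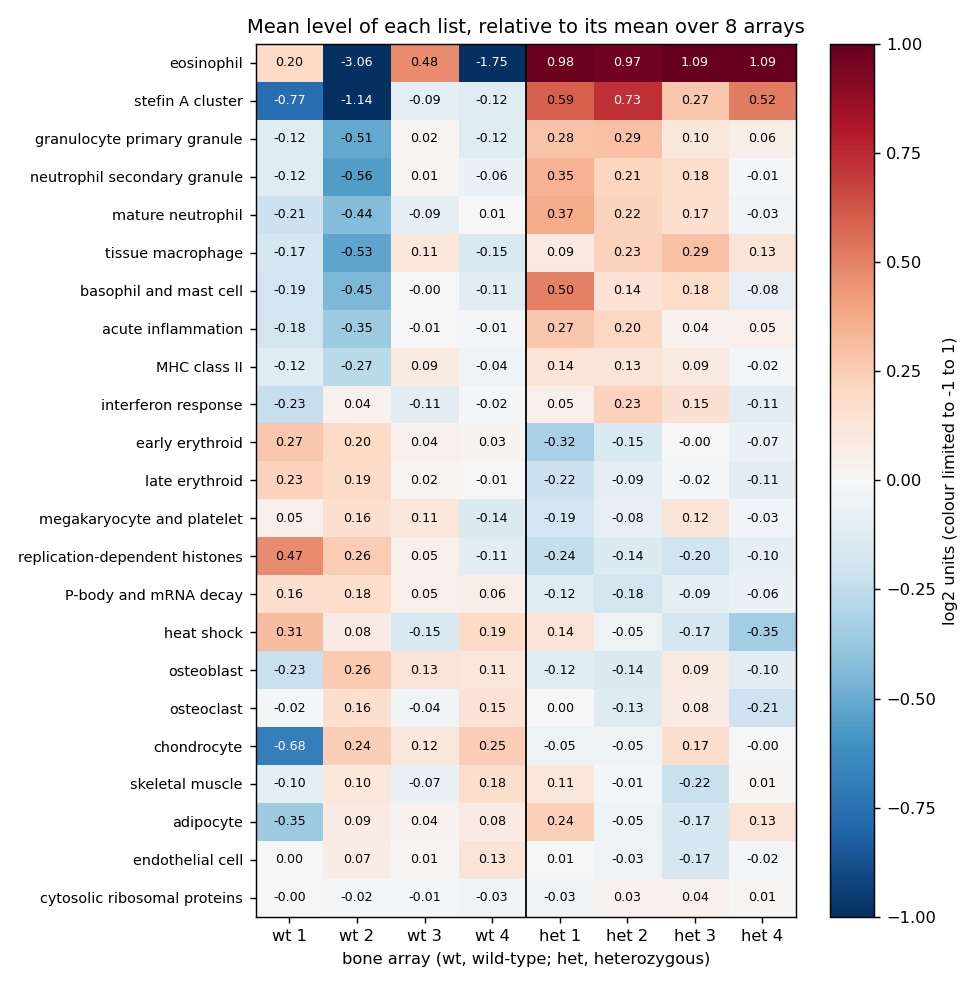
Mean level of the measured members of 23 gene lists on each bone array, in log2 units relative to the list's mean over 8 arrays, with wild-type arrays left of the line. The eosinophil row reaches -3.06 on wild-type array 2 and -1.75 on wild-type array 4 but 0.20 and 0.48 on wild-type arrays 1 and 3, and wild-type array 2 is lowest in the granulocyte and macrophage rows.

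Of the 10 genes with the strongest lower changes by the naming rule, 4 were histone genes transcribed in S phase: H1f5, H2bc3, H4f16 and H4c3. A list of 52 replication-dependent histone genes was set up after these values had been seen, so its counts describe it and are no evidence of their own. Of 45 measured, 40 had negative changes, 9 were lower with no overlap over 8 arrays, against 5.56% of all genes, and 10 fell without wild-type array 3, against 4.13%; the median was -0.35. Without wild-type arrays 2 and 3 together 1 of 44 fell, and without wild-type array 2 alone 0 passed in limma. H1f5, a linker histone, stood at 8.06, 7.62, 7.05 and 7.22 in wild-type bone and at 6.27, 6.73, 6.62 and 6.46 in heterozygous bone, a change of -1.12 ± 0.18 without wild-type array 3 (limma, adjusted p = 0.00500). H2bc3, H4f16 and H4c3 changed by -1.06, -1.04 and -0.92. Wild-type arrays 1 and 2 were the highest for these genes, and without wild-type array 1 the list's median was -0.20. Histone genes of a class are nearly identical in sequence, so the probes cannot be taken as separate genes.

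Other genes of dividing cells did not fall to that extent. Of 16 DNA replication genes 1 fell and 1 rose without wild-type array 3, against 4.13% and 4.46% of all genes. Mcm2, a subunit of the replicative helicase, fell by 0.38 and Tyms, thymidylate synthase, rose by 0.34. Of 15 cell division genes 0 passed in limma, and 1 had an unadjusted p under 0.05 over 8 arrays, against 18.5% of all genes. That gene was Nusap1, a spindle protein, at -0.26.

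Hipk2, a nuclear kinase that acts on p53, stood at 8.08, 7.99, 7.32 and 7.92 in wild-type bone and at 6.91, 7.22, 6.68 and 6.84 in heterozygous bone, a change of -1.09 ± 0.14 without wild-type array 3 (limma, adjusted p = 0.00164). Srrm2, a scaffold of nuclear speckles, changed by -0.88 in that fit, but its probes disagreed: over 8 arrays the probe used had -0.73, the next, equally bright, -0.40. Of 10 p53 target genes 0 passed in limma in either fit. Over 8 arrays 1 had an unadjusted p under 0.05, against 18.5% of all genes: Fas, a death receptor, with a change of 0.31.

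Of 14 osteoblast genes 1 fell without wild-type array 3, against 4.13% of all genes, and 2 were lower with no overlap over 8 arrays, against 5.56%. Over 8 arrays 4 were lower at an unadjusted p under 0.05, against 10.4% of all genes, and the median was -0.13. The gene that fell was Pth1r, the parathyroid hormone receptor, at 8.26, 8.44, 7.80 and 8.42 in wild-type and 7.69, 7.51, 7.74 and 7.80 in heterozygous bone, a change of -0.70 ± 0.11 (limma, adjusted p = 0.00401). Its other 2 kept probes had changes of -0.44 and 0.07 over 8 arrays. Col1a1 and Col1a2, the chains of type I collagen, had changes of -0.44 and -0.47 over 8 arrays, and Alpl, alkaline phosphatase, -0.34; none of these 3 passed in either fit. The osteoblast list was lowest on wild-type array 1, at -0.23, and its median was -0.25 without that array and -0.06 without wild-type array 2. Of 20 collagen and bone matrix genes 1 fell, Tnn, tenascin N, by 0.46.

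Of 5 osteocyte genes 0 passed in limma in either fit, and 1 had an unadjusted p under 0.05: Mepe, a matrix phosphoglycoprotein, at 8.52, 6.98, 8.27 and 7.68 in wild-type and 8.35 to 8.72 in heterozygous bone. Of 11 osteoclast genes 1 fell without wild-type array 3, Src, the kinase needed for the ruffled border, by 0.54. Of all genes, 4.13% fell and 4.46% rose in that fit, and 18.5% had an unadjusted p under 0.05 over 8 arrays. Tnfrsf11a, the receptor RANK, and Tcirg1, a proton pump subunit, had changes of -0.48 and -0.36 without wild-type array 3 and did not pass. None of the 5 measured cytokines that regulate osteoclasts passed in either fit, and 0 had an unadjusted p under 0.05. Of 14 Wnt genes 0 passed in either fit. Of 21 BMP and TGF-beta genes 1 fell without wild-type array 3, Tgfb1, by 0.35. Chondrocyte genes had 0 of 11 past the threshold and 0 at an unadjusted p under 0.05. Their level on wild-type array 1 was -0.68 relative to the list's mean, against 0.12 to 0.25 on the other wild-type arrays, with Col10a1, the collagen of hypertrophic cartilage, at 6.33 there and at 8.09 to 8.98 elsewhere.

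Gene lists of other tissues that a bone sample could hold gave 0 to 2 calls each without wild-type array 3. In that fit 4.46% of all genes rose and 4.13% fell. None of 15 skeletal muscle genes passed in limma, and 0 had an unadjusted p under 0.05; their per-array levels were -0.10 to 0.18 in wild-type and -0.22 to 0.11 in heterozygous bone. Of 8 adipocyte genes 1 rose without wild-type array 3, Car3, a carbonic anhydrase, by 0.52; per-array levels were -0.35 to 0.09 and -0.17 to 0.24. Of 12 endothelial genes 1 fell, Eng, endoglin, by 0.46. Of 8 smooth muscle and pericyte genes tested without that array 2 fell, Mylk, myosin light chain kinase, by 0.43 and Notch3 by 0.44. Over 8 arrays, 3 of 9 smooth muscle and pericyte genes were lower at an unadjusted p under 0.05, against 10.4% of all genes. Without wild-type arrays 2 and 3 together, 1 of 8 fell. The part of these tissues in the other differences was not tested.

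**Figure D4:**
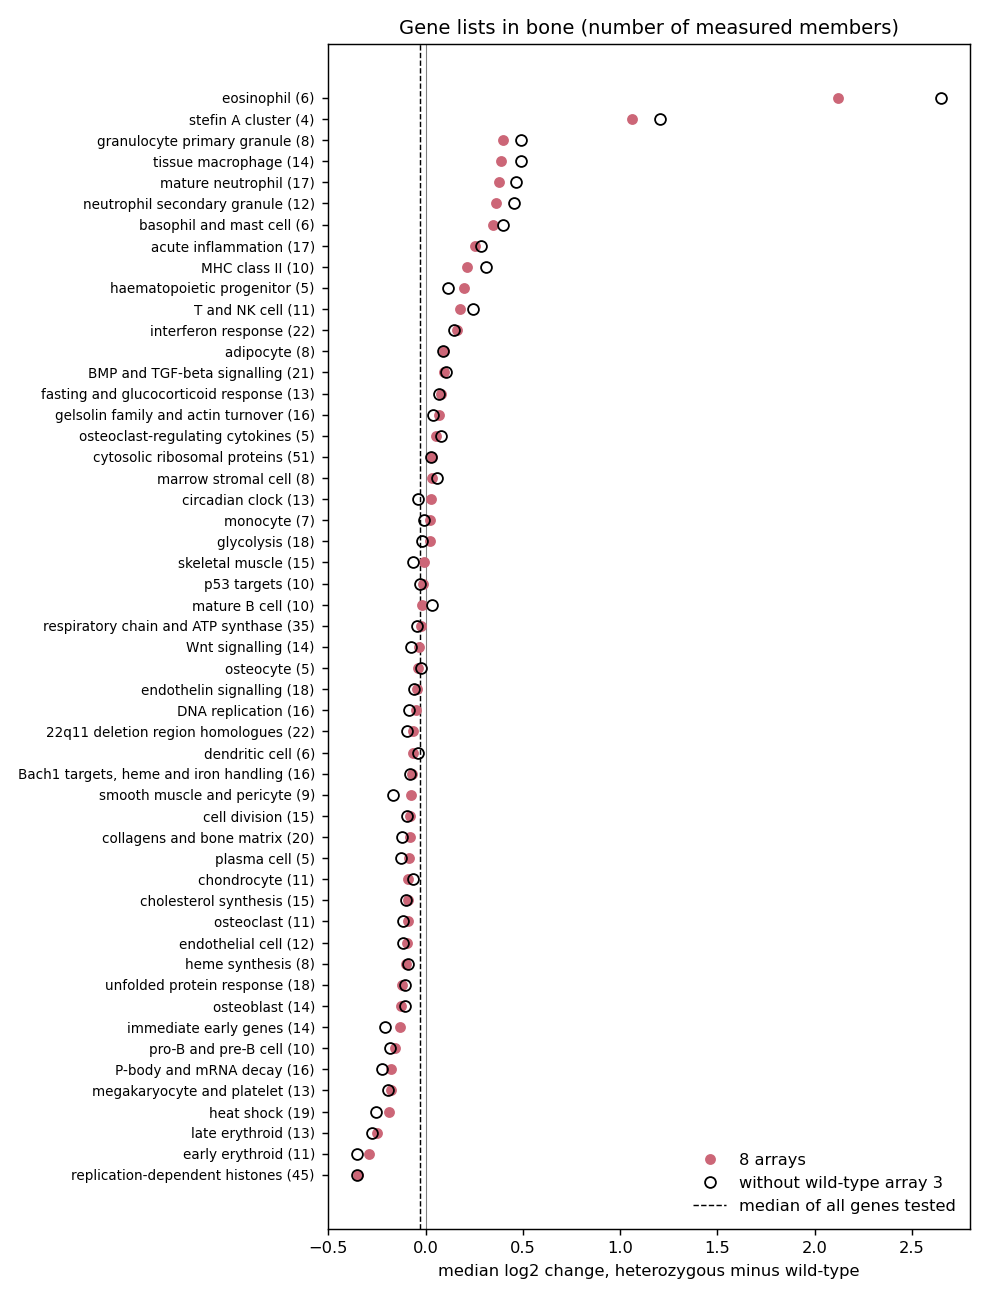
Median log2 change, heterozygous minus wild-type, of each gene list with at least 4 measured members, over 8 arrays (filled) and without wild-type array 3 (open); the dashed line is the median of all genes tested, -0.03. Eosinophil genes lie at 2.12 and 2.65, stefin genes at 1.06 and 1.20, neutrophil and tissue macrophage lists near 0.4, monocyte genes at 0.02, and histone and erythroid lists lowest.

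Of 18 measured genes of endothelin signalling, 4 fell and 1 rose without wild-type array 3, against 4.13% and 4.46% of all genes. Over 8 arrays 3 were lower with no overlap, against 5.56%, and the median change was -0.05. Without wild-type arrays 2 and 3 together, 1 of 17 fell and 0 rose. Among the ligand and its enzymes, Edn1, the endothelin 1 precursor, stood at 5.27 to 6.07 in wild-type and 5.24 to 5.62 in heterozygous bone, and its change of -0.22 did not pass. Ece1, the enzyme that cuts the precursor to active endothelin, stood at 7.43, 7.82, 6.94 and 7.41 against 6.45, 6.73, 6.64 and 7.24, and fell by 0.79 without wild-type array 3 (limma, adjusted p = 0.0223). Its other, dimmer probe had a change of -0.04 over 8 arrays. Ece2 and Mme, a related converting enzyme and the peptidase neprilysin, had changes of 0.16 and 0.12. Ednrb, the endothelin B receptor, had a change of 0.32 ± 0.16 over 8 arrays (limma, adjusted p = 0.323), with overlapping levels of 7.97 to 8.88 and 8.66 to 8.94.

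Among G proteins, the alpha subunit Gna13 stood at 10.25, 10.38, 9.96 and 10.17 in wild-type and at 9.78, 9.78, 9.73 and 9.86 in heterozygous bone, with no overlap, and changed by -0.48 ± 0.08 without wild-type array 3 (limma, adjusted p = 0.00564). Gna12, its close relative, changed by 0.64 in the opposite direction (adjusted p = 0.0322). Gnaq and Gna11, the usual partners of the endothelin A receptor, had changes of -0.09 and 0.05 and did not pass. Downstream of them, the calcium release channels Itpr2 and Itpr3 changed by -0.38 and -0.51 and passed without wild-type array 3, while Plcb2, Plcb3 and Plcb4, the phospholipases that make their ligand, lay between 0.00 and 0.07 over 8 arrays. Prkca and Prkcd, kinases of the same pathway, had changes of -0.32 and -0.14, and the arrestins Arrb1 and Arrb2 -0.29 and 0.02. None of these 4 passed in either fit. The probes of Arrb1 disagreed: its other kept probes, all dimmer, had changes of 0.08, 0.27 and 0.27 over 8 arrays.

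The series names a syndrome of the human 22q11 deletion, and 22 mouse homologues of that region were measured. None passed the threshold in limma in either fit. Over 8 arrays 2 were lower at an unadjusted p under 0.05, against 10.4% of all genes. These were Dgcr8, a microRNA processing factor, at -0.27, and Tango2, at -0.18. Tango2 and Hira, a histone chaperone, were lower with no overlap, against 5.56% of all genes. The median of the 22 genes was -0.06.

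Of 18 heat shock genes tested, 4 fell and 0 rose without wild-type array 3, against 4.13% of all genes lower. Over 8 arrays 0 of 19 passed in limma, and 7 were lower at an unadjusted p under 0.05, against 10.4% of all genes. With no overlap 3 were lower, against 5.56% of all genes. Hsph1, a large chaperone, stood at 11.35, 11.01, 10.57 and 11.23 in wild-type and at 10.71, 10.37, 10.34 and 10.23 in heterozygous bone, a change of -0.78 (limma, adjusted p = 0.00313). Hspa1a, an inducible chaperone, changed by -1.53, Chordc1 by -0.49 and Stip1 by -0.39. Of 18 genes of the unfolded protein response 1 rose, Calr, the chaperone calreticulin, which stood at 9.80 on wild-type array 3 and at 8.50 to 8.71 on the other wild-type arrays, against 9.40 to 9.72 in heterozygous bone. Of 14 immediate early genes 2 fell, Junb and Jund, each by 0.51. Of all genes, 4.46% rose and 4.13% fell without wild-type array 3.

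Among housekeeping lists, 4 of 51 cytosolic ribosomal protein genes rose, Rps6 by 0.45, Rpl7a by 0.35, Rps9 by 0.26 and Rpl31 by 0.25, with a list median of 0.03; 6 were higher with no overlap over 8 arrays. Of 35 respiratory chain genes 1 rose, Atp5o, by 0.43, and of 18 glycolysis genes 1 rose, Pfkp, a phosphofructokinase, by 0.50. Of 15 cholesterol synthesis genes 2 fell, Srebf2, the transcription factor of that pathway, by 0.49 and Stard4, a cholesterol carrier, by 0.44, and 1 rose, Nsdhl, by 0.65. Of 13 circadian clock genes 1 rose, Dbp, by 0.66, with wild-type array 3 at 10.24 and the other wild-type arrays at 9.65 to 9.71. Of 13 genes of the fasting and glucocorticoid response 1 fell, Irs2, an insulin receptor substrate, by 0.52. Of all genes, 4.46% rose and 4.13% fell in that fit, and 4.31% were higher with no overlap over 8 arrays.

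The genotype change in bone was set against that in white adipose tissue in one fit of 16 arrays, in which the difference passed for 957 of 8508 genes (11.2%), 473 higher (5.56%) and 484 lower (5.69%) in bone. The bone changes in this fit come from the same arrays as above. Bach1, Ddx6 and Purb had opposite changes in the tissues: Bach1 -0.81 in bone and 0.60 in fat, a difference of -1.40 ± 0.19 (limma, adjusted p = 0.00673); Ddx6 -0.73 and 0.49; Purb -0.83 and 0.55. Gsn changed by 1.15 in bone and 0.12 in fat, a difference of 1.03 ± 0.28 (limma, adjusted p = 0.0316). Hipk2 and H1f5 also differed, with -0.90 and -0.96 in bone against -0.09 and -0.04 in fat. Csta3, AB124611 and Slfn1 were not measured in both tissues.

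Some of the genes named above had changes of opposite sign in these tissues. Wfdc17 changed by 1.28 in bone and -0.87 in fat, a difference of 2.15 ± 0.37 (limma, adjusted p = 0.0121), Sirpa by 1.17 and -1.24, Ear10 by 1.43 and -0.997 and Orm1 by 0.76 and -0.71. Prg2 had changes of 2.22 ± 0.91 and 1.29 ± 0.91, and the difference did not pass (limma, adjusted p = 0.664). Past the threshold, the smallest p among genes higher in bone belonged to Tmem38b, a potassium channel of calcium stores, at a difference of 0.95, then Mex3c, an RNA-binding ubiquitin ligase, Orm1, Tgfbi and Tiam1. Among genes lower in bone they belonged to Bach1, Ddx6, Med12, a Mediator subunit, Purb and Sdcbp2. Against heart, 0 of 7929 genes differed past the threshold in limma, and 600 had an unadjusted p under 0.05 (7.57%).

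**Figure D5:**
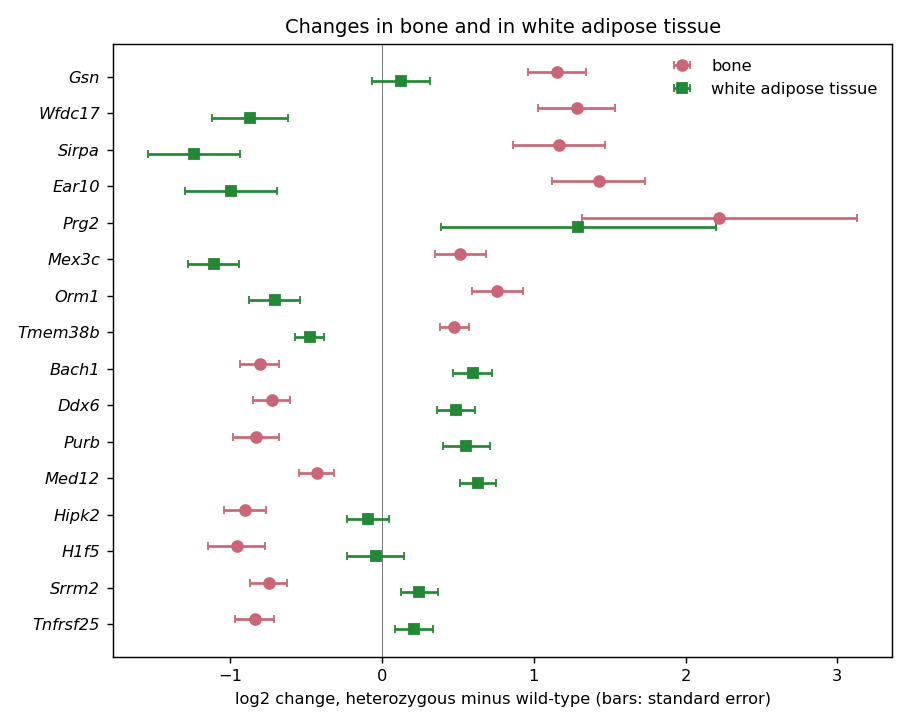
Log2 change, heterozygous minus wild-type, of 16 named genes in bone (circles) and white adipose tissue (squares), with standard errors, from the joint fit of 16 arrays. Bach1, Ddx6, Purb and Med12 lie below 0 in bone and above 0 in fat, Wfdc17, Sirpa, Ear10, Mex3c, Orm1 and Tmem38b the other way, and Gsn is near 0 in fat.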

How the data were processed

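RNA was hybridised to Illumina MouseRef-8 bead arrays, 1 array per sample. Of the 2 deposited tables, one holds raw probe intensities (lowest value 104.1) and the other intensities normalized by the authors (lowest value -18.35) with a deposited detection p-value per probe and array. The design had assumed the raw values in the other table. The submitters' processing notes name GenomeStudio 2011.1; no source used here gives the normalization. Samples were grouped by their titles.

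Raw intensities of the 8 bone arrays were corrected with limma 3.58.1 (R 4.3.3; normexp with detection p-values, offset 16), quantile normalized and put on the log2 scale; the log2 values are not the authors', whose deposited intensities served as an alternative. Probes with detection p under 0.05 on at least 4 arrays were kept, 13709 of 25697, and each gene was represented by its brightest named probe, giving 9460 genes. Probe names come from the platform annotation: 23978 probes had 1 symbol and 1719 none. Tests used lmFit and eBayes with a variance trend and Benjamini-Hochberg adjustment, and the difference from white adipose tissue used the mouse as a random block (statmod 1.5.0). The code was tested on simulated data. The labels number 7 mice for 8 bone arrays, so p-values measure the spread between these arrays, which may not all be separate animals.

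The members and the gene lists were chosen with earlier results of these data known. A naming rule took every gene past the threshold over 8 arrays, all measured endothelin genes and up to 5 genes per direction for each tissue difference. It also took the 10 genes per direction with the largest change without wild-type array 3, past the threshold and with no overlap. Of each list it took up to 4 members by p, or 2 where none passed. The text does not name every gene so taken, and those left out include list members that did not pass. The haematopoietic progenitor list, with 0 of 5 genes past the threshold in either fit, is not described above. Of 173 genes named, 143 follow this rule. The other 30 lie outside it and were chosen after their values were seen, among them Ccr3, C1qb, Hspa1a, Mpo and Nfe2l2. List members with no named probe that passed the filter were not analysed here. Promoters are RefSeq's, on GRCm38.p6.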

Additional observations from a re-analysis of the deposited data

Results flagged for a closer look

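Among 344 groups of 4 levels of the genes named, 16 held an array far from the other 3 by Dixon's test, where chance flags about 1 in 20 groups. In wild-type bone, array 3 was high for Calr at 9.80 (others 8.50 to 8.71), Dbp at 10.24 (9.65 to 9.71) and Nsdhl at 7.06 (6.26 to 6.32), and array 2 for Col1a2 at 9.74 (9.14 to 9.22). In heterozygous bone, array 1 was low for Gata1 at 7.63 and Tal1 at 10.51, and high for Clec4e at 7.81, Junb at 8.98 and S100a8 at 14.84. Heterozygous array 4 was low for Elane at 13.14, Gnaq at 8.79, Hira at 6.37 and Nusap1 at 11.65. Heterozygous array 3 was low for Stfa1 at 10.34 and Wfdc17 at 7.69, and high for Srebf2 at 8.44.

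Of 108 groups of list levels, 3 were flagged in the same way: adipocyte genes at -0.353 and chondrocyte genes at -0.684 on wild-type array 1, and Schlafen genes at -0.329 on wild-type array 2.

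For 18 genes named, the change in bone differed from that in white adipose tissue past the threshold of limma's adjusted p. The difference, bone minus fat, was below 0 for Bach1 at -1.40, Purb at -1.39, Ddx6 at -1.22, Med12 at -1.06, Tnfrsf25 at -1.05, Srrm2 and Sdcbp2 at -0.99, H1f5 at -0.92 and Hipk2 at -0.81. It was above 0 for Ear10 at 2.42, Sirpa at 2.41, Wfdc17 at 2.15, Mex3c at 1.63, Orm1 at 1.47, Gsn at 1.03, Tmem38b at 0.95, Tgfbi at 0.75 and Tiam1 at 0.73.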

How the results depend on the processing

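The count of 7 genes past the threshold depended on the processing. It was 14 without background correction, 12 with an offset of 50, 3 without the detection filter, 2 with every probe tested on its own, 542 with array weights, 337 at an adjusted p under 0.10 and 737 without both arrays that share a mouse number. It was 0 in limma with median scaling (1703 genes at an unadjusted p under 0.05), without the variance trend (1698) and with mean array signal as a covariate (1730). Leaving out 1 array gave 0 to 805 genes, 805 being without wild-type array 3. From that count of 805, leaving out a further array gave 167 to 835 genes, the lowest without wild-type array 2. Genes whose groups did not overlap numbered 1046 to 2030 when 1 array was left out and 2717 without both arrays sharing a mouse number. The difference from fat passed for 1241 genes with no mouse block. It passed for 1588 genes without the arrays that share a mouse number and for 1945 without wild-type array 3 of both tissues. The causes were not tested.

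Same-numbered arrays of the genotypes did not deviate together (r of -0.089, 0.022, 0.061 and -0.05), so the numbers were not taken as pairs; with the replicate block, 2 genes passed over 8 arrays and 294 without wild-type array 3. No change of a gene past the threshold turned its sign in any alternative run. A slide block was not run, as the headers give no slides. Dim probes, such as that of Csta3, limit the size of a change that can be measured.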
